A study of Mus musculus with 4 samples.

Results

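The 45 genes described here are transcribed in the S phase or in the G2 and M phases of the cell cycle. They were taken from a written list of such genes, and all 45 were among the 14697 genes of the deposited table of mouse blood. The S list held 21 of them and the G2/M list 24. Individual dividing cells were then looked for with 3 members of the G2/M list, Top2a, Mki67 and Birc5: a cell whose summed count of the 3 was at least 2 is called a cycling cell, and 70 of 14588 cells met this rule. The counts are unique molecular identifiers (UMIs), each of which stands for 1 captured transcript read from its 3′ end.

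Peripheral blood was drawn from the heart of female C57BL/6 mice. Young mice were 4 months old and old mice 24 months old, with no other treatment or allele given for either group. Each age had 2 samples (young 1, young 2, old 1, old 2), and each sample was a pool of 2 mice, so that n = 2 per age and the spread is one between pools. A density gradient and red cell lysis enriched mononuclear cells before capture, which limits the samples to cells that pass both steps.

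In a dividing cell the genes of the S list supply the licensed origins, the helicase, the nucleotides and the polymerase clamp with which DNA is copied, and those of the G2/M list condense the chromosomes, build the spindle and time their separation. As background, promoters of S genes are typically bound by E2F factors, and those of G2/M genes by the MuvB complex at a cell cycle homology region (CHR) together with NF-Y at CCAAT boxes. Most lymphocytes in blood are at rest, so such genes are usually strong in few cells.

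The promoter letters are shown because the S and G2/M lists differed in them and in how far their UMIs were confined to cycling cells. The second difference follows in part from the cell rule, which uses genes of the G2/M list only. RefSeq promoter windows of the GRCm38.p6 build, reaching from 250 bases before to 50 bases after each start, were held for 37 of the 45 members. On both strands, TTTGAA or TTCGAA was searched as the CHR, CCAAT as the CCAAT box, and TTTCCCGC, TTTCGCGC, TTTGCCGC or TTTGGCGC as the E2F letters. A match is a description of letters and not a bound site. The 130 bases before the start are printed 5′ to 3′ on the gene's strand, with matches in capitals. Top2a (DNA topoisomerase II), Cdk1 (the mitotic kinase), Cdc20 (an activator of the anaphase-promoting complex) and Ube2c (a ubiquitin-conjugating enzyme of that complex) are printed from the G2/M list, and Mcm6 (a helicase subunit) and Hells (a chromatin remodeller) from the S list. All are examples that hold matches and do not represent their lists. The same stretches of Birc5 and Cdc6 held no match, those of Mcm3 and Mcm5 no E2F letters, and that of Ccnb2 no CHR letters. Cdk1 also had E2F letters that begin 131 bases before the start, so its printed stretch cuts them and leaves them unmarked. The windows lie at chr11:99024190-99024319 (minus strand) for Top2a, chr10:69352913-69353042 (minus) for Cdk1, chr4:118437344-118437473 (minus) for Cdc20, chr2:164769799-164769928 (plus) for Ube2c, chr1:128359706-128359835 (minus) for Mcm6 and chr19:38930860-38930989 (plus) for Hells.
Top2a: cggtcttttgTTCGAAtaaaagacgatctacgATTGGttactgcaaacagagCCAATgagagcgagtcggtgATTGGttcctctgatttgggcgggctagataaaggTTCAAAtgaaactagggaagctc
Cdk1: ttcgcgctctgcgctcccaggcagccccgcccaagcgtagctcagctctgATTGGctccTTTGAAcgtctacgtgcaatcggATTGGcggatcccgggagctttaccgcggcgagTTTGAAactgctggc
Cdc20: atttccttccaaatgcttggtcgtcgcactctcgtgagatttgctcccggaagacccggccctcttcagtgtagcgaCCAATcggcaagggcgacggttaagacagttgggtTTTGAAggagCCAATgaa
Ube2c: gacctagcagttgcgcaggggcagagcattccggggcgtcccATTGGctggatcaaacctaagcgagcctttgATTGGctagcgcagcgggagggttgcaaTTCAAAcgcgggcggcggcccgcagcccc
Mcm6: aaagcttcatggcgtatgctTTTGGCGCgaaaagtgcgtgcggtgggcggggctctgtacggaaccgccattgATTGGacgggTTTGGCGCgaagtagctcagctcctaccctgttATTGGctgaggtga
Hells: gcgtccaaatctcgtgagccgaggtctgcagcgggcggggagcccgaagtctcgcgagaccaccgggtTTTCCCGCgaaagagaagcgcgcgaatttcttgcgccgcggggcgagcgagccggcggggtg

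The CHR letters were in the windows of 15 of 20 G2/M members (75%) and 3 of 17 S members (17.6%), against 21.7% of all 27025 genes with a window. The CCAAT letters were in 17 of 20 G2/M and 11 of 17 S windows, against 41.1% of all genes. CHR and CCAAT letters were together in 15 of 20 G2/M windows and 3 of 17 S windows, against 8.61% of all genes. The E2F letters were in 1 of 20 G2/M and 7 of 17 S windows, against 2.60% of all genes. Among other cell cycle genes, the CHR letters were in 25 of 34 mitosis genes (73.5%) and the E2F letters in 7 of 18 replication genes (38.9%). The promoters of Birc5, Nusap1 and Tacc3 held none of the 3 motifs in this window, as did those of Tyms, Dut, Tk1 and Ung.

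Depth set what could be seen. The samples held 9521253 to 18658072 UMIs, and the median cell held 2332 (young 1), 2233 (young 2), 3186.5 (old 1) and 3482 (old 2) UMIs. In the T lineage the order was the other way, with medians of 2920 and 2819.5 UMIs in young and 2687.5 and 2764.5 in old cells. The 45 genes together took 0.118% and 0.0994% of the UMIs of young samples and 0.0946% and 0.104% of those of old ones. The summed S list stood at 496 and 418 CPM (the UMIs of the genes scaled to a total of 1000000) in young and 408 and 428 in old samples, and the G2/M list at 682 and 576 against 538 and 614. The 2 ages overlapped in the G2/M sum and in the share of all 45, and in the S sum old 2 lay above young 2. These sums cannot tell apart the number of dividing cells, the RNA in each of them, and the make-up and RNA of the other cells. Only 12.7% of the UMIs of the 45 genes lay in cycling cells. Barcodes seen in more than 1 library numbered 108, of which 1 was that of a cycling cell.

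The 70 cycling cells were 0.480% of all cells and held 1.17% of all UMIs but 12.7% of the 52159 UMIs of the 45 genes. They had a median of 7451.5 UMIs against 2594 in the other cells. A cell with more UMIs reaches the limit of 2 more easily, so the rule itself favours such cells. In 1 random thinning of each cell to 1000 UMIs, 4, 6, 4 and 8 cells met the rule in young 1, young 2, old 1 and old 2. Near the limit, 19 cells had exactly 2 UMIs of Top2a, Mki67 and Birc5, and 236 had exactly 1 and were left out. At the other end, 26 cells had at least 10. Young 1 held 20 cycling cells of 3902, young 2 held 14 of 3857, old 1 held 21 of 4642 and old 2 held 15 of 2187. At least 20 UMIs of the 42 members that the rule did not use were held by 57 of the 70 cycling cells, and by 54 cells that the rule left out.

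Within the cycling cells G2/M transcripts outnumbered S transcripts. A cycling cell had a median of 17.5 UMIs of the S list (range 0 to 97) and 51.5 of the 21 other genes of the G2/M list (range 0 to 245). In 49 of the 70 the G2/M sum was the higher, and in 11 both sums were under 10. Per 1000 UMIs, cycling cells held 2.93 of the S list and 7.24 of the G2/M list, against 0.404 and 0.498 in the other cells. The S list made up 28.8% of these UMIs in cycling cells and 44.8% in the others. Hmgb2 alone gave 1783 UMIs in cycling cells, where the G2/M list with Top2a, Mki67 and Birc5 gave 4899. The G2/M sums thus lean on 1 abundant gene. Since the rule uses G2/M genes, it leans toward late cells, and cells in S without those transcripts are missed.

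**Figure D1:**
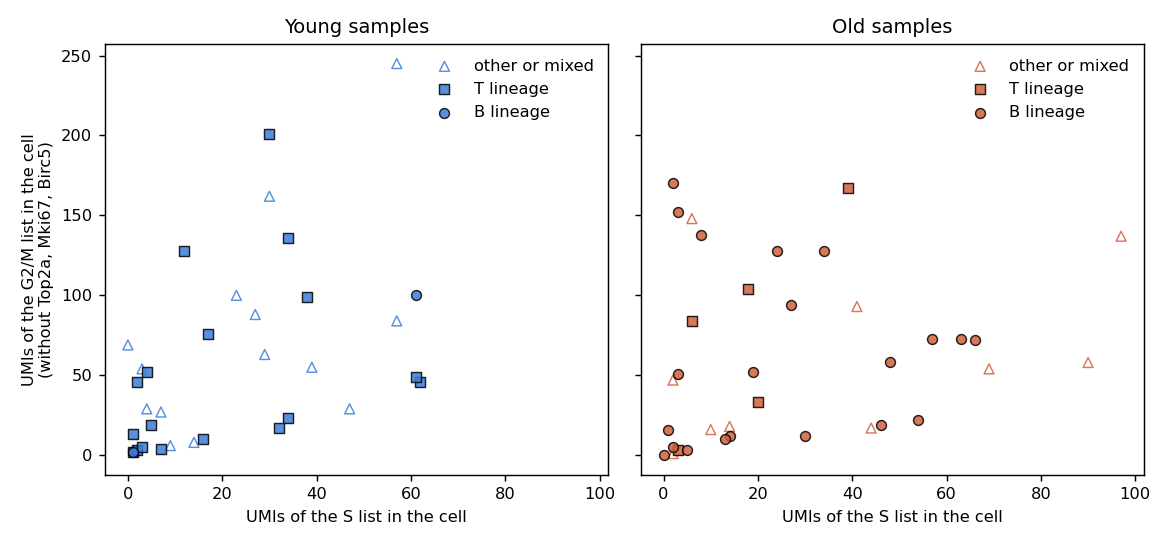
Each point is 1 of the 70 cycling cells, with the UMIs of the S list on the x axis and those of the G2/M list without Top2a, Mki67 and Birc5 on the y axis, young samples left and old samples right. Filled circles are B lineage, filled squares T lineage and open triangles other or mixed cells, and the G2/M sum reaches 245 while the S sum reaches 97.

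How far a gene was confined to cycling cells differed between and within the lists. For G2/M genes the median share of a gene's UMIs that lay in cycling cells was 45.8%, from 3.85% for Tubb4b to 87.5% for Bub1. For S genes the median was 8.88%, from 2.51% for Rfc2 to 66.0% for Rrm2. These shares describe members that were chosen as cell cycle genes, and for Top2a (64.5%), Mki67 (65.2%) and Birc5 (80.9%) they follow from the rule itself. The rule uses genes of the G2/M list only and misses cells in S without them. A higher share for the G2/M list than for the S list therefore follows in part from the rule.

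**Figure D2:**
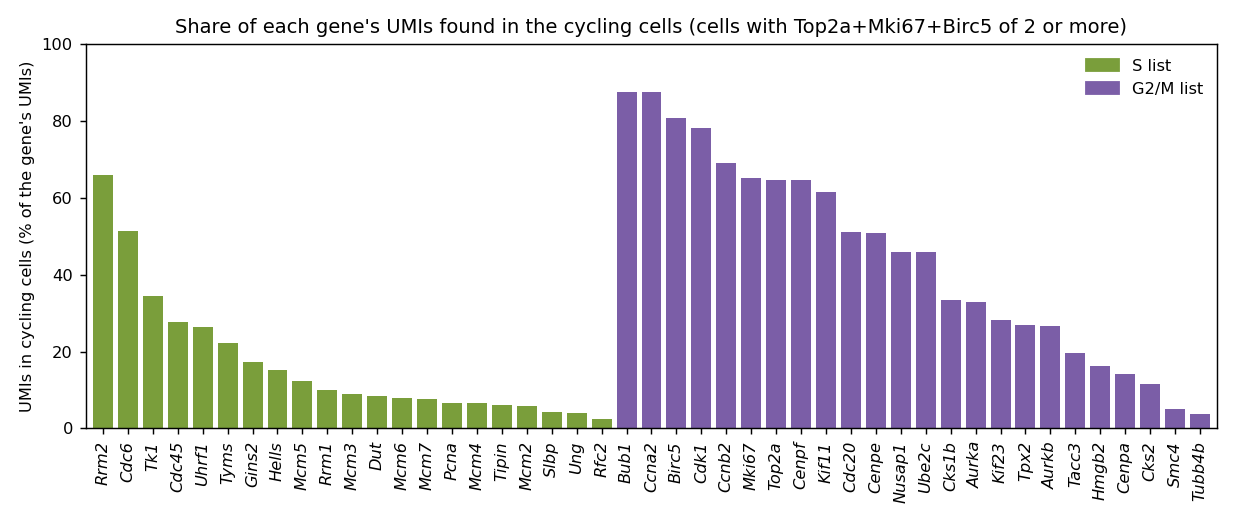
Bars give the share of each gene's UMIs, in percent, that lay in the 70 cycling cells, for the 21 genes of the S list (green) and the 24 of the G2/M list (purple), each list sorted. Bub1 and Rrm2 lead their lists at 87.5% and 66.0%, while Tubb4b and Rfc2 close them at 3.85% and 2.51%.

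Among the S genes, the origin licensing and helicase group (Mcm2 to Mcm7, Cdc6, Cdc45 and Gins2) had a median of 8.88% of UMIs in cycling cells. Cdc6, which loads the helicase, stood out at 51.4%, but on 35 UMIs in all, while Mcm2, a helicase subunit with 702 UMIs, was at 5.70%. The 5 nucleotide synthesis genes had a median of 22.1%. Rrm2, the regulated subunit of ribonucleotide reductase, had 208 of 315 UMIs in cycling cells, Tk1 (thymidine kinase) 34.3%, Tyms (thymidylate synthase) 22.1%, Rrm1, the large reductase subunit, 10.1%, and Dut, which breaks down dUTP, 8.32%. The 7 genes of the fork, repair and chromatin had a median of 6.13%, with Uhrf1, which keeps DNA methylation through replication, at 26.5% and Slbp, which binds the stem-loop of histone mRNAs, at 4.29%.

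Among the G2/M genes, the 8 of cyclin-Cdk and anaphase control had a median of 60.1% of UMIs in cycling cells. Ccna2 (cyclin A2) was at 87.4%, Cdk1 at 78.2% and Ccnb2 (cyclin B2) at 69.1%, whereas Cks2, a Cdk-binding subunit, was at 11.7%. Of the Aurora kinase and chromosomal passenger group, Aurka was at 32.8% and Aurkb at 26.6%. The 9 genes of spindle, motor and centromere had a median of 28.1%, with Cenpf and the kinesin Kif11 at 64.5% and 61.5% and Cenpa, the centromeric histone, at 14.0%. The 3 G2/M genes with the most UMIs were among the 5 least confined of their list: Hmgb2, a chromatin protein, with 11049 UMIs (16.1% in cycling cells), Tubb4b, a beta tubulin, with 6994 (3.85%), and Smc4, a condensin subunit, with 4371 (5.06%). The leading S genes were Slbp with 4035 UMIs, Rfc2, a clamp loader subunit, with 3832 (2.51% in cycling cells) and Dut with 2403, which at 8.32% lay near the median of its list. For these 6 genes the sum over a sample was therefore set mostly by cells outside the cycling class.

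All 42 members that the rule did not use had higher CPM in cycling cells than in the others. The median ratio was 22.2, and 37 of the 42 were at least 5-fold higher, against 3.27% of the 12711 genes with at least 16 UMIs. Among the other cell cycle genes, 41 of 42 mitosis genes, 17 of 23 replication genes and 7 of 30 regulators were at least 5-fold higher. Pbk, a mitotic kinase, had 56 of its 62 UMIs in cycling cells and Hmmr, a spindle protein, 31 of 36. Genes known to restrain division lay on both sides: Btg1 stood at 422 CPM in cycling and 1131 CPM in other cells, Btg2 at 114 and 228 CPM and Cdkn1b (p27) at 41.9 and 58.5 CPM, while Cdkn2c (p18) stood at 112 and 15.5 CPM and Cdkn1a (p21) at 26.8 and 12.3 CPM. These examples, with Pbk and Hmmr, were chosen here after their values were seen, and no test was run since the cells are not replicates.

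The lineage of a cell was read from 4 genes: B from at least 2 UMIs of Cd79a (part of the B cell receptor), T from at least 1 of Cd3e (part of the T cell receptor complex), NK from at least 1 of Klrb1c (NK1.1), and myeloid from at least 5 of Lyz2 (lysozyme). Cells that passed the limits of more than 1 lineage were kept apart as mixed, apart from T cells with Klrb1c, which formed their own class. The rule found 2076, 2075, 3421 and 1540 B cells and 854, 650, 240 and 170 T cells in young 1, young 2, old 1 and old 2. T cells were thus fewer in both old samples than in both young ones. The names were checked with other genes. The B marker Ms4a1 (CD20) stood at 1094 to 1275 CPM in the B and 19.5 to 50.9 CPM in the T lineage, and Pax5, a B lineage factor, at 98.3 to 128 CPM in the B and 2.68 to 6.41 CPM in the T lineage. The summed T markers (Cd3d, Cd3g, Cd247, Lck and Bcl11b) stood at 2725 CPM or more in the T and 125 CPM or less in the B lineage.

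Cycling cells were 2, 0, 11 and 10 of the B lineage and 9, 9, 3 and 2 of the T lineage, in the same order of samples. B cells made up 5.88% of the 34 young and 58.3% of the 36 old cycling cells, and T cells 52.9% of the young and 13.9% of the old. The NK lineage gave 1, 2, 0 and 1 cycling cells, T cells with Klrb1c 1, 1, 1 and 0, the myeloid lineage 0, 0, 0 and 1, mixed cells 7, 1, 3 and 1, and unassigned cells 0, 1, 3 and 0. The 12 mixed cycling cells were mostly B with T (9), and their median of 12669.5 UMIs exceeded the 4903 of other mixed cells. Doublets were not called, so pairs of cells may be among them.

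Per cell of the lineage, cycling B cells were 0.0963% in young 1 (95% exact binomial interval 0.0117 to 0.348), 0% in young 2, 0.322% in old 1 (0.161 to 0.575) and 0.649% in old 2 (0.312 to 1.19). For the 0 of 2075 cells of young 2 the exact interval reached up to 0.178%. Both old pools lay above both young ones, with a mean difference of 0.437 percentage points, but with 2 against 2 samples the two-sided exact permutation test gave p = 0.333, the smallest of its 6 labellings. For comparison, the myeloid lineage, mostly of cells that do not divide in blood, held 1 cycling cell of 1039 (0.0962%, interval 0.00244 to 0.535, median 3676 UMIs of the other cells). That cell had 16 UMIs of the 3 genes and 148 of the rest of the G2/M list, so it is no measure of free RNA, and the interval covers the B shares of young 1 and old 1. The median B cell held 2106 and 2083 UMIs at the young and 3055 and 3272.5 at the old age. With each cell thinned to 1000 UMIs in 1 random draw, the B shares were 0.0482%, 0%, 0.0585% and 0.260%, on 1, 0, 2 and 4 cells. The mean difference was 0.135 points (permutation p = 0.333), and old 1 was then close to young 1. No other draw was made. No cell fell below 1000 UMIs, the smallest holding 1117.

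Cycling T cells were 1.05% (0.483 to 1.99) in young 1, 1.38% (0.635 to 2.61) in young 2, 1.25% (0.259 to 3.61) in old 1 and 1.18% (0.143 to 4.18) in old 2. The ages overlapped, and the mean difference of -0.006 points (exact permutation p = 1) changed sign under other limits and with thinning. Thinned T shares were 0.351%, 0.615%, 0% and 1.18%, on 3, 4, 0 and 2 cells. For the 0 of 240 cells of old 1 the exact interval reached up to 1.53%. Over all cells the shares were 0.513%, 0.363%, 0.452% and 0.686%, which also overlapped (difference 0.131 points, exact permutation p = 0.667). Intervals, also those for a count of 0, cover counting error only. The old T shares rest on 3 and 2 cells, and the young B share on 2. With lineage limits of 1 UMI, cycling B cells were 1, 0, 4 and 1, and old 2 fell to 0.121%. With mixed cells assigned by other markers they were 4, 1, 12 and 11.

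**Figure D3:**
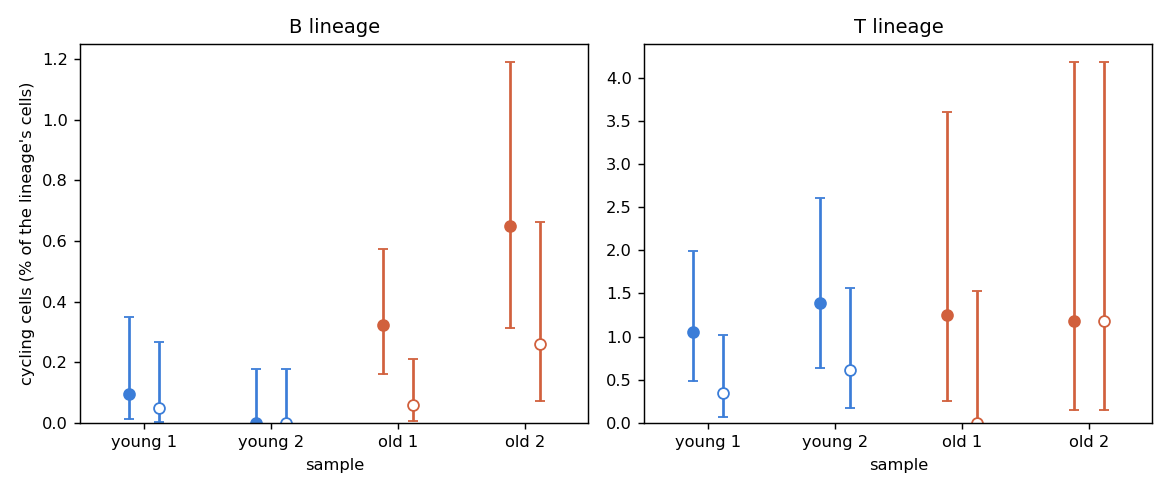
Points give the share of cycling cells, in percent of the lineage's cells, in each of the 4 samples for the B lineage (left) and the T lineage (right, another scale), and bars the 95% exact binomial intervals. Filled points use all UMIs and open points cells thinned to 1000 UMIs. In the B lineage the filled old points, 0.322% and 0.649%, lie above the young ones, while the T points overlap.

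Markers that the lineage rule did not use were looked at in the cycling cells. Cycling B cells kept Ms4a1 at 1225 CPM against 1179 CPM in other B cells and Pax5 at 108.4 against 109.5 CPM, and 21 of the 23 had a UMI of Ms4a1. Of the 7 plasmablast genes, Sdc1 was at 0 and Xbp1 lower (18.8 against 47.6 CPM) in them, and the other 5 were higher. The other B cells here are of both ages. Jchain (146 against 35.3 CPM) was found in 4 of the 23, with 22 of its 31 UMIs in 1 cell, Mzb1 stood at 1004 against 849 CPM, Irf4 at 42.4 against 31.8 CPM and Prdm1 at 14.1 against 6.45 CPM, and Tnfrsf17 had 1 UMI. Since 21 of the 23 were old, B cells of the old samples are the nearer comparison. All B cells of old 1 and old 2 held Mzb1 at 1033 and 1013 CPM, above the cycling cells. They held Irf4 at 41.3 and 29.0 CPM, Jchain at 28.1 and 71.9 CPM and Prdm1 at 9.15 and 7.83 CPM. Cd27 was at 9.42 CPM in cycling and 74.3 CPM in other B cells of both ages. Fcer2a (CD23) had no UMI in the 23 cells, 21 of which were old, where all B cells of old 1 and old 2 stood at 80.9 and 74.9 CPM. All 23 cycling T cells had UMIs of Cd3d, Cd3g and Lck. Gzma (granzyme A) stood at 1981 CPM in them against 320 CPM in other T cells, but its 288 UMIs lay in 7 cells, 1 of which held 139. Cd8a was found in 9 and Cd4 in 5 of the 23. Cd34 and Kit, which mark blood progenitors, had no UMI in the cycling cells of either lineage. In the other B and T cells they stood at only 0.0323 to 0.691 CPM, so their absence in 23 cells of each lineage says little. Flt3, another progenitor gene, had 1 UMI in cycling B cells (4.71 against 2.48 CPM in other B cells) and 0 in cycling T cells. Cd27, listed with them, stood at 337 CPM in cycling and 323 CPM in other T cells. Fcer2a, Cd4 and Cd8a were chosen after their values were seen.

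For the comparison of ages, UMIs were summed per sample over all cells or over a lineage, and all genes that passed a filter on low counts were put through the quasi-likelihood test of edgeR, p being adjusted over all of them by the Benjamini-Hochberg method. A gene counts as called at an adjusted p under 0.05. Log2 fold changes are old against young, and CPM carry no length term, since a UMI marks a transcript by its 3′ end.

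Over all cells, 44 of the 45 members were tested, all but Bub1, and 1 was called, where 9.25% of all 11476 genes were. Smc4 stood at 137, 106, 52.0 and 68.0 CPM in young 1, young 2, old 1 and old 2, both old samples below both young ones. Its log2 fold change was -0.97 (SE 0.18, edgeR adjusted p = 0.033). The call was lost without young 1 (log2 fold change -0.82) and without young 2 (-1.10), where fewer of all genes were called as well. T cells, which held Smc4 at 118 to 248.6 CPM against 53.9 to 85.0 CPM in B cells, numbered 854 and 650 in young against 240 and 170 in old samples, and the part of this in the fall was not tested. The 3 genes of the cell rule were not called: Top2a stood at 8.90, 4.90, 6.49 and 8.40 CPM, Birc5 at 7.69, 5.08, 4.82 and 9.35 CPM, and Mki67 at 2.42, 1.91, 3.05 and 3.05 CPM. Old samples did not overlap young ones for 18 of the 44 members (40.9%), against 57.5% of all genes tested. The median log2 fold change of the 44 was -0.05, against 0.000901 over all genes.

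In the B lineage 39 members were tested and 3, all of the G2/M list, were higher in old samples, where 6.07% of 10160 genes were called. Cdc6, Cdc45, Bub1, Cenpe, Cenpf and Kif11 did not pass the filter. Tpx2, which targets Aurora A to the spindle, had 6 and 2 UMIs in young against 87 and 28 in old samples, which is 1.05 and 0.37 against 6.42 and 4.30 CPM (log2 fold change 2.97, SE 0.50, edgeR adjusted p = 0.025). Mki67, the proliferation antigen Ki-67, had 3 and 2 against 39 and 19 UMIs (2.72, SE 0.50, adjusted p = 0.032). Cks1b, a Cdk-binding subunit, had 44 and 33 against 185 and 127 UMIs (1.33, SE 0.27, adjusted p = 0.042). In each of the 3 both old samples lay above both young ones.

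These B calls rest on few UMIs, some of them in the few cycling B cells. Of Mki67's UMIs, cycling cells gave 0, 0, 17 and 11 in young 1, young 2, old 1 and old 2, and of Cks1b's 5, 0, 28 and 65. Tpx2 was spread otherwise, with 0, 0, 5 and 10 UMIs in cycling cells and 6, 2, 82 and 18 in the other B cells. Without the cycling cells none of the 3 was called: Tpx2 kept 2.73 on the log2 scale (adjusted p = 0.052), Cks1b had 0.81 (adjusted p = 0.078), and Mki67 no longer passed the filter, though its own UMIs helped to choose the cells left out. All 3 calls were also lost when 1 young sample was left out. Log2 fold changes of Tpx2, Mki67 and Cks1b were 3.83, 2.94 and 1.45 without young 1 and 2.46, 2.55 and 1.22 without young 2. They were 2.67, 2.76 and 1.61 without old 1 and 3.17, 2.67 and 1.01 without old 2. More members were called without an old sample, some of them lower without old 2. Over all genes, too, fewer were called without a young sample and more without an old one. The losses were thus not particular to these 3 genes. DESeq2 called Tpx2 and Cks1b but not Mki67 (2.77, DESeq2 adjusted p = 0.095).

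Other B values were higher in both old samples but did not pass the test. Top2a had 19 and 13 UMIs in young against 84 and 52 in old samples (log2 fold change 1.37, SE 0.32, adjusted p = 0.062), of which cycling cells gave 4, 0, 37 and 45. Birc5 had 9 and 7 against 41 and 49 UMIs (1.90, SE 0.59, adjusted p = 0.12), with 5, 0, 25 and 44 of them in cycling cells. Uhrf1 of the S list reached 1.52 on the log2 scale (SE 0.35, adjusted p = 0.059). The abundant members were not called: Slbp stood at 94.1, 83.4, 70.5 and 87.4 CPM, Hmgb2 at 154, 145, 114 and 181 CPM, and Tubb4b at 155, 147, 197 and 132 CPM, with the ages overlapping in each. Tubb4b, Hmgb2 and Cks1b belong to families with near-identical copies, and how reads shared with a copy were counted is uncertain. Rfc2 was at 99.4, 92.1, 68.3 and 79.7 CPM (log2 fold change -0.30, SE 0.14, adjusted p = 0.26), and Dut at 45.1, 39.2, 51.9 and 46.4 CPM (0.30, SE 0.12, adjusted p = 0.21).

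Of the 20 G2/M members tested in B cells 18 had a fold change above 0 and 2 below, with a median of 0.81. Of the 19 S members 12 were above and 7 below, with a median of 0.25. Over all genes the median was 0.00269. Samples of the 2 ages did not overlap for 20 of the 39 members (51.3%), old being the higher in 16. Of all 10160 genes tested 53.9% did not overlap, old being the higher in 2151. A gene that is low in young samples could pass the filter only through the old ones, so these counts and medians are a description.

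Other features of the B lineage differed between the ages too. The summed CPM of 4 platelet genes (Ppbp, Pf4, Gng11 and Itga2b) in B cells were 0.878 and 10.5 in the young against 442 and 302 in the old samples, and those of 7 plasmablast genes 645 and 648 in the young against 1156 and 1163 in the old samples. Most of the plasmablast sum was Mzb1, at 552 and 511 CPM in young and 1033 and 1013 CPM in old B cells. Irf4 and Prdm1 were also higher in both old samples, and Jchain and Tnfrsf17 overlapped. Xbp1 (54.6 and 60.9 against 43.2 and 38.7 CPM) and Sdc1 (8.95 and 7.34 against 0.96 and 2.46 CPM) were lower in both old samples. The 5 erythroid genes varied between samples, from 11842 CPM in young 1 to 63154 CPM in young 2, with 37478 and 32699 CPM in the old samples. Crip1 stood at 2608 and 1773 CPM in young and 10161 and 4139 CPM in old B cells, and Fcer2a at 253 and 245 against 80.9 and 74.9 CPM, both chosen after their values were seen. The part of platelet RNA, of these subsets and of depth in the age differences of the members was not tested.

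In the T lineage 33 members were tested and 2 were called, where 3.79% of 7760 genes were. Smc4 was lower in old T cells, at 248.6 and 217.6 CPM for young against 118 and 160 CPM for old samples (log2 fold change -0.86, SE 0.16, edgeR adjusted p = 0.015). Hmgb2 was higher, at 318 and 322 against 491 and 598 CPM (0.67, SE 0.12, adjusted p = 0.015). Neither gene's samples overlapped between ages. Both calls held without the cycling cells, where Smc4 had -0.95 (adjusted p = 0.0020) and Hmgb2 0.69 (adjusted p = 0.0032). In cells outside the cycling class Smc4 stood at 244 and 210 against 115 and 140 CPM, and Hmgb2 at 253 and 226 against 396 and 434 CPM. Without old 1 the call of Smc4 was lost (-0.64, adjusted p = 0.066), and that of Hmgb2 held in each of its 11 alternatives.

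The genes of the cell rule did not pass in T cells. Top2a was at 13.0 and 10.9 CPM in young and 16.1 and 33.0 CPM in old samples (log2 fold change 0.87, SE 0.38, adjusted p = 0.28), Mki67 at 3.82 and 4.93 against 8.03 and 9.18 CPM (0.88, SE 0.53, adjusted p = 0.46), and Birc5 at 13.0 and 15.3 against 9.37 and 45.9 CPM (0.75, SE 0.52, adjusted p = 0.53). Birc5 turned to -0.67 without old 2, which held 25 of the 32 old UMIs, 24 of them in cycling cells. Slbp was at 66.9 and 62.2 against 114 and 80.8 CPM (0.52, SE 0.19, adjusted p = 0.18), Tubb4b at 76.5 and 81.9 against 106 and 106 CPM (0.33, SE 0.16, adjusted p = 0.34), Dut at 53.5 and 65.6 against 69.6 and 78.9 CPM, and Rfc2 at 58.1 and 55.3 against 73.6 and 58.7 CPM. Old samples did not overlap young ones for 21 of the 33 members (63.6%), old being the higher in 16. Of all 7760 genes tested 47.6% did not overlap, old being the higher in 2343. A gene low at 1 age could pass the filter only through the other, so these counts are a description. The platelet genes differed in T cells as well, from 2.29 and 4.93 in the young to 451 and 284 in the old samples, as summed CPM, and Crip1 stood at 1398 and 1453 against 3471 and 4267 CPM. Their part in the T values was not tested.

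**Figure D4:**
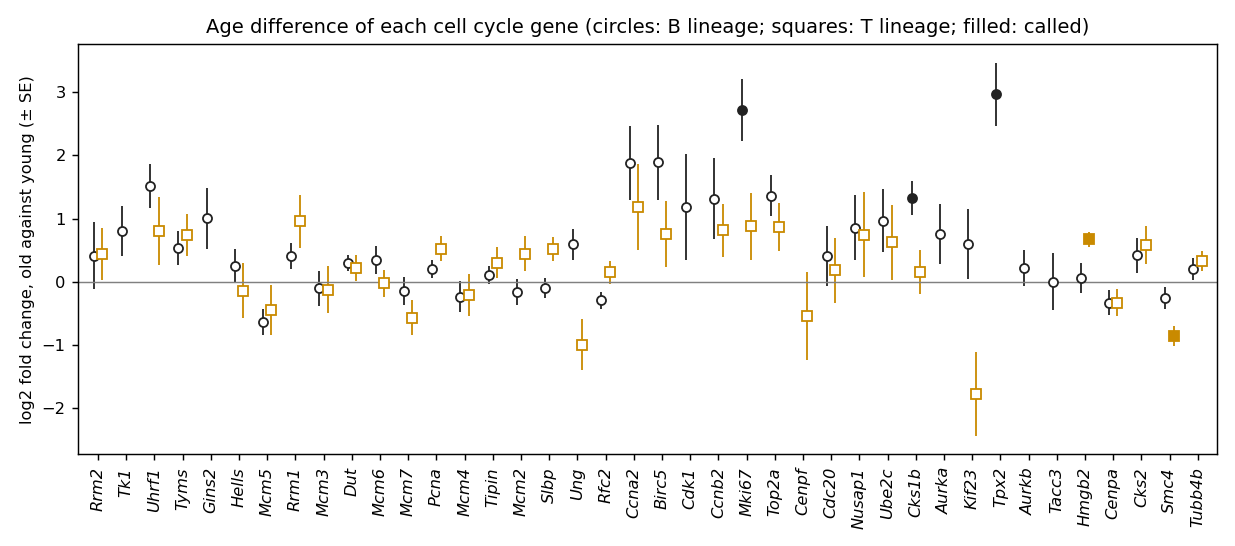
Each point is the log2 fold change of a member, old against young, with its standard error, in the B lineage (black circles) and the T lineage (yellow squares); filled points were called by edgeR. Tpx2, Mki67 and Cks1b are filled above 0 in B cells, and Hmgb2 above and Smc4 below 0 in T cells. Members that no filter passed are not drawn.

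Few members could be tested in the smaller lineages. In NK cells neither edgeR (0 of 9 members) nor DESeq2 (0) called a member, Hmgb2 being the 1 with an edgeR p under 0.05 before adjustment, where 0.409% of 3180 genes were called. Smc4 was at 85.3 and 69.2 CPM in young and 36.7 and 37.4 CPM in old NK cells, on 3 to 30 UMIs (log2 fold change -0.94, SE 0.49, edgeR adjusted p = 0.77). In myeloid cells edgeR called 0 of 12 members and DESeq2 likewise 0, and 3 (Pcna, Ube2c and Dut) had an edgeR p under 0.05 before adjustment, where 0.331% of 6643 genes were called. Smc4 was at 34.8, 20.9, 19.3 and 33.5 CPM there, with the ages overlapping. Without old 1, 1 member was called in myeloid cells.

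The difference of the age effect between the B and T lineages was tested over 10391 genes with B and T sums of each sample in 1 fit, a comparison added after the data were seen. edgeR called 2.84% of all genes and 0 of 42 members, 8 of which had p under 0.05 before adjustment, and DESeq2 was not run on this fit. Hmgb2 came nearest, its age effect being lower in B than in T cells by a log2 difference of -0.64 (SE 0.17, adjusted p = 0.051), followed by Smc4 at 0.60 (SE 0.17, adjusted p = 0.064) and Cks1b at 1.19 (SE 0.34, adjusted p = 0.068). Hmgb2 was called with RLE size factors, without the cycling cells and with lineage limits of 1 UMI. Without old 2, Cks1b, Hmgb2, Slbp and Ube2c were called. Calls in 1 lineage and not the other are therefore not shown to differ between them.

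Of 98 further genes of the cell cycle, 85 were tested over all cells, and 3 were called higher and 3 lower in old samples. That is 7.06% called, against 9.25% of all genes tested. Among the regulators, Cdkn2a (p16 and p19) stood at 0.52 and 1.00 CPM in young and 5.57 and 3.99 CPM in old samples (log2 fold change 2.70), Cdkn1a (p21) at 3.63 and 6.62 against 19.7 and 15.5 CPM (1.83), and Myc, a growth factor-induced transcription factor, at 35.7 and 31.1 against 55.0 and 72.1 CPM (0.98). The restrainers of division Btg1, at 1559 and 1427 against 774 and 924 CPM, and Cdkn1b, at 78.4 and 69.1 against 50.3 and 36.9 CPM, were lower (-0.76 and -0.71). Smc2, the condensin partner of Smc4, was lower at 20.4 and 16.8 against 9.49 and 10.8 CPM (-0.83, SE 0.17, adjusted p = 0.038). All 6 calls were lost without young 1, all but Cdkn1a without young 2, and Smc2 also without old 1 (adjusted p = 0.053). With no filter on low counts all 6 were lost too (adjusted p from 0.053 to 0.096).

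In B cells 5 of 67 of these genes were called higher and 1 lower (8.96% called, against 6.07% of all genes). Ccnd2 (cyclin D2), which acts in G1, had 82.3 and 59.2 CPM in young and 272 and 204 CPM in old B cells (log2 fold change 1.82, SE 0.18, adjusted p = 0.0051), nearly all outside cycling cells. Cdkn2a had 1 and 1 UMIs against 69 and 21 (4.51, SE 0.59, adjusted p = 0.013). Myc was also higher (1.19) and Btg1 lower (-0.80). The midzone genes Prc1, with 5 and 2 against 43 and 24 UMIs (2.49, SE 0.51, adjusted p = 0.042), and Racgap1, with 58 and 31 against 347 and 145 UMIs (1.67, SE 0.25, adjusted p = 0.018), were higher. Racgap1 outside cycling cells stood at 9.68 and 5.69 against 25.0 and 17.1 CPM. Ccnd2 was called in each of its 11 alternatives. Racgap1 was lost without young 2 and with lineage limits of 1 UMI (adjusted p = 0.11), and the other 4 without either young sample, Prc1 also under DESeq2 (adjusted p = 0.088).

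In T cells 2 of 52 were called higher and 2 lower (7.69% called, against 3.79% of all genes). H2afz, a histone variant, stood at 572 and 582 CPM in young and 866 and 896 CPM in old T cells (log2 fold change 0.52, SE 0.10, adjusted p = 0.017), and Racgap1 at 28.3 and 26.6 against 46.9 and 69.7 CPM (0.96, SE 0.23, adjusted p = 0.0496). Foxo1, a factor of resting lymphocytes, was lower at 91.4 and 67.6 against 29.5 and 44.0 CPM (-1.24), as was Btg1 (-0.62). H2afz was lost without young 1, Foxo1 without old 1 and under DESeq2 (adjusted p = 0.059), and Racgap1 without old 2, with RLE size factors (0.052) and under DESeq2 (0.35). With lineage limits of 1 UMI, Foxo1 (0.21), Racgap1 (0.12) and Btg1 (0.068) were lost. In NK cells edgeR called 0 of 17, where it called 0.409% of all genes, and DESeq2 also 0. Of the 17, 4 had an edgeR p under 0.05 before adjustment. In myeloid cells Cdkn2d (p19 of the INK4 family) was the 1 gene of 28 called, where 0.331% of all genes were. It stood at 57.2 and 53.8 CPM in young and 130 and 117 CPM in old samples (1.25, SE 0.18, adjusted p = 0.047). The call was lost without either young sample, with the replicate block (adjusted p = 0.070) and with lineage limits of 1 UMI (0.095).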

How the data were processed

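Cells of peripheral blood were profiled with the Chromium 3′ chemistry in 4 samples, 2 per age, each a pool of 2 mice. Per the labels and methods, the authors counted UMIs in Cell Ranger against mm10 and joined the libraries of an age. In Seurat 2.3.0 they kept cells above 500 genes and below 10% mitochondrial reads. Cells with more than 4000 genes were removed too, so some cells with many UMIs, as the cycling cells tended to have, may be missing. How many were lost from each age or lineage is not known here. Which annotation release was used, and whether joining evened out depth, is not given by the sources used here. The deposited counts are whole numbers of UMIs per gene and cell and were used as deposited, and the sample of each cell was read from the deposited list of cells.

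UMIs were summed per sample over all cells or 1 lineage and compared in edgeR 4.0.16 (quasi-likelihood F test after filterByExpr and TMM scaling, Benjamini-Hochberg threshold 0.05) in R 4.3.3. Alternatives were RLE size factors, DESeq2 1.42.0, no filter, the 10% detection rule of the study, a replicate block, leaving out each sample, leaving out cycling cells, and lineage limits of 1 UMI. Shares of cycling cells had 95% exact binomial intervals and a two-sided exact permutation test over samples (6 labellings, smallest p 0.333), also with cells thinned to 1000 UMIs. CPM divide by the UMIs of all genes in the cells summed. The members, lists and rules were chosen with earlier results of these data known. Genes named are Top2a, Mki67 and Birc5, the 3 members of each list with the most UMIs, members called with age, at most 8 called genes of the other cell cycle list per comparison, and examples by role. The test was checked on simulated counts. Python 3.11.15, scipy 1.17.1 and matplotlib 3.10.9 were used. For 1 lineage marker, no level is reported here.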

Additional observations from a re-analysis of the deposited data

Results flagged for a closer look

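Genes are given here because a test of the difference between the age effects in B and T cells, run over all genes, called them. No member was called in this test, and 3 other cell cycle genes were. Ccnd2 had an age difference that was larger in the B than in the T lineage by 1.97 on the log2 scale (SE 0.16, edgeR adjusted p = 2.1e-06), with 82.3 and 59.2 CPM in young and 272 and 204 CPM in old B cells against 468 and 411 CPM in young and 446 and 413 CPM in old T cells. Myc differed by 1.13 (SE 0.26, adjusted p = 0.026), with 36.0 and 34.1 against 62.3 and 89.8 CPM in B cells and 34.8 and 34.5 against 38.8 and 36.7 CPM in T cells. Rpa2, a subunit of the single-strand binding protein, differed by -1.27 (SE 0.31, adjusted p = 0.033), with 37.7 and 25.9 against 21.5 and 27.0 CPM in B cells and 35.6 and 32.6 against 84.4 and 49.5 CPM in T cells.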

How the results depend on the processing

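Over all cells, the count of members called went from 1 to 0 with no filter on low counts, to 3 with the replicate block and to 3 without cycling cells, and ranged from 0 to 7 when 1 sample was left out. In the B lineage it went from 3 to 5 with no filter, to 0 under the 10% detection rule, to 0 without cycling cells and to 1 with lineage limits of 1 UMI, and ranged from 0 to 12 when 1 sample was left out. When 1 sample was left out, Hmgb2 in T cells kept a log2 fold change of 0.52 to 0.81 and Smc4 one of -1.08 to -0.64. The call of Smc4 was lost without old 1, and the other genes called varied. In the T lineage the count was 2 under every alternative that kept all samples, Hmgb2 and Smc4 each time. In NK cells it was 0 throughout. In myeloid cells it was 1 with no filter and from 0 to 1 when 1 sample was left out. With a sample left out, the lone sample of that age is assumed to vary like the other age. The share of all genes called moved too. Over all cells it was 9.25% in the main fit, 3.12% with no filter, 13.6% with the replicate block and 9.32% without cycling cells. In the B lineage it was 6.07%, and 6.23% with no filter, 7.73% under the 10% rule, 6.04% without cycling cells and 4.25% with lineage limits of 1 UMI. In myeloid cells it rose from 0.331% to 2.37% with no filter. In each of these sets it fell without a young sample and rose without an old one. The causes were not tested. Without cycling cells and under the 10% rule fewer genes are tested by construction.

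The T share of cycling cells, whose difference was -0.006 points, turned to 0.105 when thinned, 0.328 at a limit of 3 UMIs, 1.56 at 1 UMI, and, in alternatives chosen after seeing the data, 0.0994 with mixed cells assigned by other markers and 0.317 at 10 UMIs. It ranged from -0.171 to 0.159 when 1 sample was left out. The B share kept its sign in all 10 alternatives, from 0.135 thinned to 1.27 at a limit of 1 UMI, and that of all cells in all 8. For the 23 single-gene results that were called, 174 of 229 values under alternatives kept the call and 55 lost it. For the 4 not called (Top2a and Birc5 in B and T cells), 28 of 34 stayed so, 5 became called and 1 changed sign. This was Birc5 in T cells, which ranged from -0.67 (without old 2) to 1.61 (without old 1) when 1 sample was left out.

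The replicate numbers named samples only. Over genes, samples of the same number had a correlation of deviations of 0.158 for all cells, 0.00362 for B, -0.0817 for T, -0.0187 for NK and -0.0375 for myeloid sums. With the replicate block, the count was 3 for all cells, 3 for B, 2 for T, 0 for NK and 0 for myeloid cells. Depth limits the members in B cells, where the called genes had 2 to 44 UMIs in a young sample.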
